A study of Mus musculus with 12 samples.

Results

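The classical complement pathway was represented by 6 genes, C1qa, C1qb, C1r, C1s, C2 and C4a, taken by name from the 185 endogenous messenger RNAs counted on the nCounter GX Mouse Inflammation panel in mouse oviduct. The panel counts fluorescent barcodes on probes bound to each mRNA, with no amplification step. The oviducts came from 12 female CD1 mice, an outbred stock, aged 6 to 8 weeks, with normal cycles, each injected intraperitoneally on the day of estrus and killed 24 h later. The injection held lipopolysaccharide (LPS, a component of the outer membrane of Gram-negative bacteria, here from E. coli serotype 055:B5) at 0 µg in controls, at 2 µg for the low dose and at 10 µg for the high dose, and each was given to 4 mice, each measured in a lane of its own. The question here is how each of these mRNAs followed the dose. The whole oviduct was extracted, so more or fewer cells of a type and more or less RNA per cell cannot be told apart.

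The classical pathway starts when C1q binds antibody, C-reactive protein or a microbial or dying cell surface. C1q is assembled from chains encoded by C1qa, C1qb and C1qc, and is made mainly by macrophages and dendritic cells. C1r and C1s are serine proteases that travel with C1q in the C1 complex: C1r activates C1s, and C1s cleaves C4 and C2, whose fragments form the C3 convertase. Unlike C1q, the proteases and C4 are made by hepatocytes and by many stromal and epithelial cells. In the mouse, C4a encodes sex-limited protein, a close relative of the haemolytic C4 encoded by C4b.

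The table's probes carry older names for both proteases: by accession, RefSeq (GRCm38.p6) lists C1r as C1ra and C1s as C1s1. In that annotation C1qa, C1qc and C1qb follow one another on chromosome 4, C1ra and C1s1 are neighbours on chromosome 6, and C2, its neighbour Cfb and C4a all lie on chromosome 17. C1ra, C1s1 and C4a have close relatives on the same chromosomes (C1rb, C1s2 and C4b). Whether the C1r, C1s and C4a probes also count those relatives was not tested, since no probe sequence was used here, so these counts may hold mRNA of both copies.

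Promoter windows, from 250 bases before to 50 after the annotated start, were found in RefSeq (GRCm38.p6) for 3 of the 6 genes. They are shown as the start regions of a C1q chain and of both C1 proteases, whose counts are set side by side below. Capitals mark matches, on either strand, to 5 motifs: TTCNNNGAA (a STAT site), GAAANNGAA (an interferon-stimulated response element), TTGCNNCAA (C/EBP), GAGGAA (PU.1) and the NF-kB consensus.
C1qb, chr4:136886151-136886450, minus strand: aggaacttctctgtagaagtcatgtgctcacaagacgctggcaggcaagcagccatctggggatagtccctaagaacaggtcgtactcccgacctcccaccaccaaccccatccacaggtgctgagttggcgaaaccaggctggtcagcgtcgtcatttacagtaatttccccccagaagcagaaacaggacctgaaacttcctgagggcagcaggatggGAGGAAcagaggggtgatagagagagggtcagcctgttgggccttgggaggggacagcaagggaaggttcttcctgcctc
C1ra, chr6:124512371-124512670, plus strand: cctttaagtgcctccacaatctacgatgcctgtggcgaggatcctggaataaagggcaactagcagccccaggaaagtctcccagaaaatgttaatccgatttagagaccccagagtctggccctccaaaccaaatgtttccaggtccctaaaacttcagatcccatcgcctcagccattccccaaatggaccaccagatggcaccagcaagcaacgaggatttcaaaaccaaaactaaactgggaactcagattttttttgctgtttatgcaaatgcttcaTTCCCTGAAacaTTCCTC
C1s1, chr6:124542310-124542609, minus strand: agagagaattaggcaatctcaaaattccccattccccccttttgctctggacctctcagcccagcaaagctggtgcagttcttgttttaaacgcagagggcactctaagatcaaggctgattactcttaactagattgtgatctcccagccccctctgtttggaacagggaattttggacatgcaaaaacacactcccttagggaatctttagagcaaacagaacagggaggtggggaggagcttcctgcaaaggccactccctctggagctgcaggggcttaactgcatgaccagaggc
The C1qb window held 1 match, to the PU.1 motif on the sense strand, starting 30 bases before the annotated start. The C1ra window held a STAT match, TTCCCTGAA, from base 33 after the start and a PU.1 match on the opposite strand from base 45, which do not overlap. The C1s1 window held 0 matches, as did a second, overlapping window listed for C1s1. Of 32851 promoter windows in the table, 28.3% held the PU.1 motif, 8.3% the STAT motif, 8.56% the response element, 4.51% the NF-kB consensus and 2.08% the C/EBP motif. A match describes the letters and shows no bound factor.

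Endogenous counts per lane ranged from 98258 to 196878. Counts were divided by the geometric mean of 6 reference genes, and these scaled counts are used below. Together the 6 members took 5.79% ± 1.28 of all endogenous counts without LPS, 9.13% ± 2.76 with 2 µg and 14.2% ± 1.26 with 10 µg (SD over 4 mice). All 6 were far above background in all lanes: the lowest raw count was 455 and the highest background limit, the mean plus 2 SD of the negative control probes, was 6.78. Counting error alone was 4.69% at the lowest count and 0.922% at the highest, well under the spread between mice, and it leaves out errors of RNA input and hybridisation.

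C1q rose with the high dose. C1qa, the A chain, had scaled counts of 391, 589, 652 and 573 in control mice 1 to 4 and of 1409.9, 1728, 1623 and 1480 at the high dose. C1qb, the B chain, was at 708, 941, 1078 and 933 in the controls and at 2127, 2685, 2491 and 2310 at the high dose. For both chains all 4 high-dose mice lay above all 4 controls, and the high-dose mice lay close together. By edgeR's quasi-likelihood test, with Benjamini-Hochberg adjustment over all 165 genes tested, C1qa rose by 1.50 ± 0.36 (log2, SE; 2.83-fold, adjusted p = 0.00838) and C1qb by 1.39 ± 0.31 (2.63-fold, adjusted p = 0.00558). The C1qa call was lost without control mice 2 and 4 together, the lanes with the fewest fields of view counted (1.58, adjusted p = 0.05003), and with the analysis of variance that the methods name, after adjustment (adjusted p = 0.0701).

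Both proteases rose at the high dose, with larger fold changes than C1q. C1r, which activates C1s, was at 763, 1140.3, 1135 and 1197 in the controls and at 3759, 4531, 4543 and 4984 at the high dose. C1s, which cleaves C4 and C2, was at 1709, 2085, 4284 and 2847 in the controls and at 14413, 12747, 9563 and 11577 at the high dose. Neither protease overlapped between these groups, although control mouse 3 stood above the other controls for C1s. C1r rose by 2.07 ± 0.27 (log2, SE; 4.21-fold, adjusted p = 0.000344, edgeR) and C1s by 2.14 ± 0.35 (4.42-fold, adjusted p = 0.00102). Whether these rises differ from that of C1q is tested below on ratios within the lane.

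C2 and C4a rose as well. C2, the protease of the C3 convertase, was at 488, 1028, 948 and 1083 in the controls and at 1677, 2189, 1989 and 2172 at the high dose. C4a was at 472, 755, 1061 and 1187 in the controls and at 2085, 2551, 3230.4 and 4037 at the high dose. All high-dose mice again lay above all controls, and C4a spread most widely within the high dose, from 2085 to 4037. C2 had the smallest rise of the 6 members, 1.18 ± 0.29 (log2, SE; 2.26-fold, adjusted p = 0.0112, edgeR), and C4a rose by 1.78 ± 0.34 (3.43-fold, adjusted p = 0.00262).

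**Figure D1:**
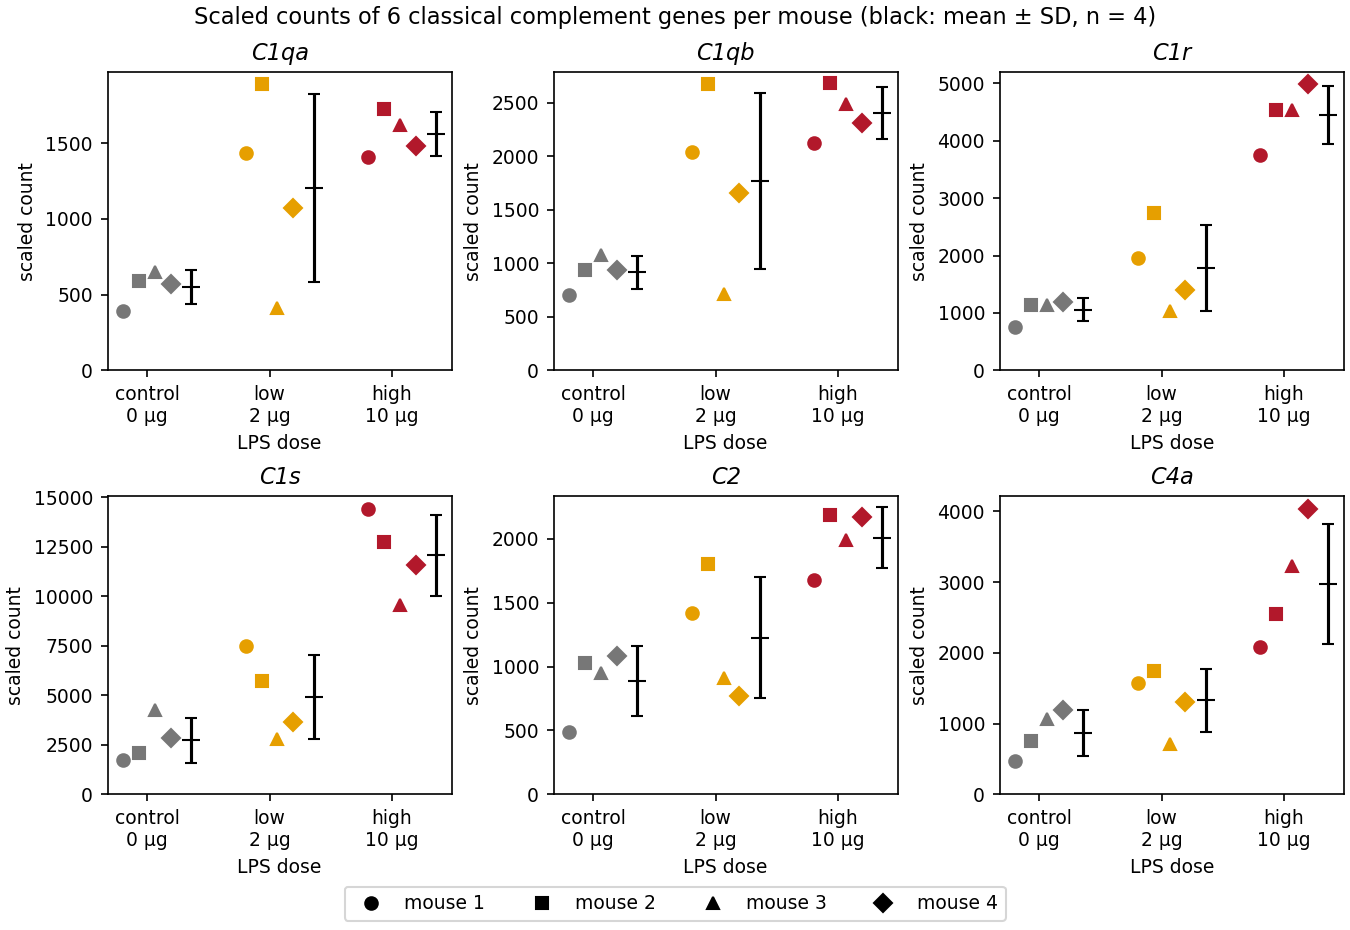
Scaled counts (linear axis from 0) of the 6 genes by LPS dose, with 1 symbol per mouse and the mean ± SD of 4 mice beside each group. In all 6 panels the 4 high-dose mice lie above the 4 controls, while the low-dose mice are spread out, with mouse 3 at the level of the controls for C1qa (414) and C1qb (714).

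All 6 members thus rose at the high dose, where 22.4% of the 165 genes tested were higher and 0 lower. The groups did not overlap for 6 of 6 members, against 25.5% of all genes tested. The median log2 fold change was 1.64 over the members and 0.24 over all genes tested. The calls of C1qb, C1r, C1s, C2 and C4a held under all 27 alternatives, among them scaling by total count, which gave the lowest values for all 6 (0.93 for C1qa, 0.82 for C1qb, 1.50 for C1r, 1.59 for C1s, 0.62 for C2 and 1.20 for C4a, log2).

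At the low dose 0 of 6 members passed by edgeR, where 2.42% of genes tested were higher; at an unadjusted p below 0.05, 4 of the 6 were higher, as were 21 of all 165 genes tested, with 2 lower. C1qa was at 1432, 1893, 414 and 1075 in low-dose mice 1 to 4, and C1qb at 2036, 2669.9, 714 and 1653. Mice 1, 2 and 4 lay above all controls for both chains, and mouse 3 lay within the controls. The log2 fold changes were 1.13 ± 0.35 for C1qa and 0.95 ± 0.31 for C1qb (SE; adjusted p = 0.167 for each).

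C1r was at 1954, 2743, 1031 and 1401 in the same mice, and C1s at 7494, 5706, 2810.0 and 3674. For C1r the low-dose mice 1, 2 and 4 exceeded all controls, and for C1s only mice 1 and 2 did. C2 was at 1421, 1801, 909 and 769.9, and C4a at 1569, 1737, 714 and 1299.9. For C2 mice 3 and 4 lay within the controls, and for C4a mouse 3 did. All 6 members overlapped between low dose and control, where 3.64% of genes tested lay wholly above. The log2 fold changes were 0.75 ± 0.26 for C1r (adjusted p = 0.184), 0.85 ± 0.33 for C1s (0.261), 0.47 ± 0.29 for C2 (0.503) and 0.62 ± 0.33 for C4a (0.465, edgeR).

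The low-dose result turned on mouse 3, which was lowest of the low-dose mice for C1qa, C1qb, C1r, C1s and C4a. Mouse 2 was highest for C1qa, C1qb, C1r, C2 and C4a, and mouse 1 for C1s. Without mouse 3, C1qa (1.41, adjusted p = 0.00183), C1qb (1.21, adjusted p = 0.00183) and C1r (0.94, adjusted p = 0.0169) were called higher by edgeR, where 8.59% of the 163 genes then tested were. C1s (1.04, adjusted p = 0.0696), C4a (0.82, adjusted p = 0.142) and C2 (0.59, adjusted p = 0.330) did not pass without it. DESeq2 with all mice called C1qa and C1qb at the low dose (adjusted p = 0.0414 and 0.0496).

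Between the doses the proteases differed and C1q did not pass. The high-dose mice exceeded the low-dose mice in C1r by 1.32 ± 0.26 (log2, SE; 2.50-fold, adjusted p = 0.00999, edgeR) and C1s by 1.29 ± 0.34 (2.45-fold, adjusted p = 0.0433). These were 2 of the 6 members, where 6.67% of genes tested were higher. C4a differed by 1.16 ± 0.33 (adjusted p = 0.0595), C2 by 0.71 ± 0.29 (0.172), C1qb by 0.44 ± 0.30 (0.413) and C1qa by 0.37 ± 0.35 (0.564). The high-dose mice lay above all low-dose mice for C1r, C1s and C4a, against 14.5% of all genes tested, while low-dose mouse 2 lay above every high-dose mouse for C1qa. The C1r call held under all 27 alternatives. That of C1s was lost under 15 of them, with adjusted p up to 0.143 over all 27, among them TMM, DESeq2 size factors, positive controls, background subtraction and leaving out any one of control mice 2 and 4, low-dose mice 2, 3 and 4 and all 4 high-dose mice. By total count C1qa lay at -0.03 (adjusted p = 0.965).

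**Figure D2:**
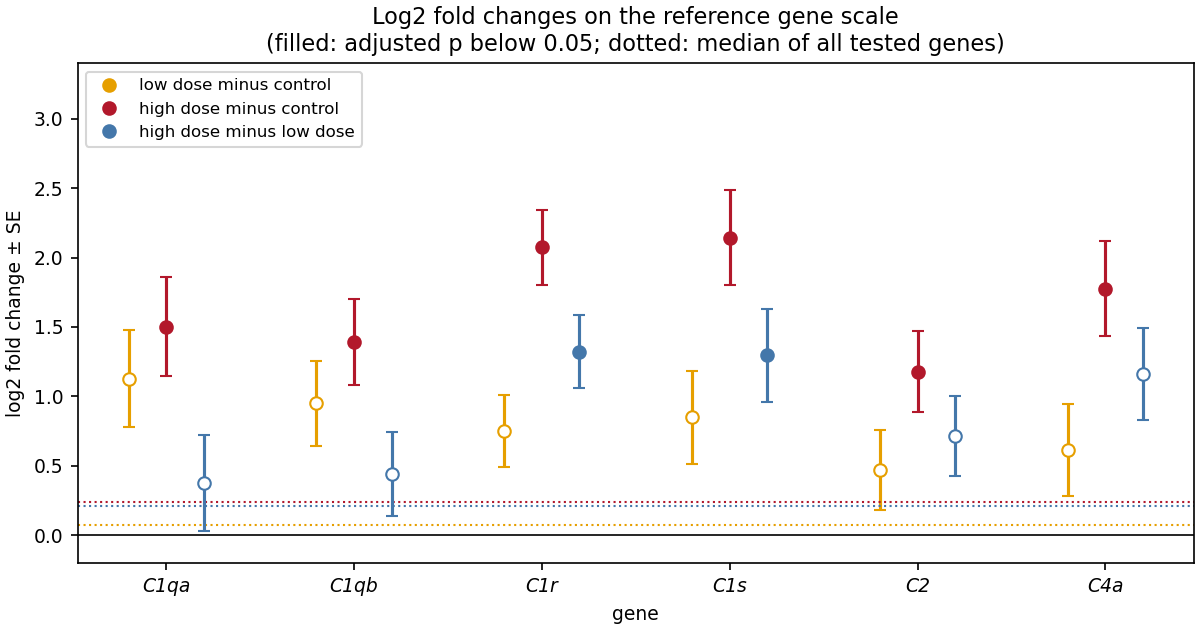
Log2 fold changes with SE (vertical axis) of the 6 genes in the 3 comparisons on the reference gene scale; filled points passed at an adjusted p below 0.05 and dotted lines give the median of all 165 genes tested. All 6 genes are filled for high dose against control, 0 of 6 for low dose against control, and C1r and C1s between the doses.

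The contrast of C1q with the other members was examined as ratios within the lane, which no choice of reference genes can change. C1q was taken as the geometric mean of the C1qa and C1qb counts, and each ratio is given relative to the geometric mean of the controls. C1r:C1q was 0.97, 1.03, 0.91 and 1.10 in the controls, 0.77, 0.82, 1.27 and 0.71 at the low dose and 1.46, 1.41, 1.52 and 1.81 at the high dose. All high-dose mice lay above all other mice, as they did above the controls for 5.52% of the 163 genes on this scale and above the low-dose mice for 5.52%, and low-dose mice 1, 2 and 4 lay below all controls. C1s:C1q was 0.89, 0.76, 1.39 and 1.06 in the controls, 1.20, 0.69, 1.41 and 0.75 at the low dose and 2.27, 1.61, 1.30 and 1.71 at the high dose. For C1s the high-dose range overlapped both other groups, through high-dose mouse 3.

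C2:C1q was 0.77, 1.14, 0.93 and 1.22 in the controls, 0.69, 0.66, 1.38 and 0.48 at the low dose and 0.80, 0.84, 0.82 and 0.97 at the high dose. C4a:C1q was 0.77, 0.87, 1.08 and 1.39 in the controls, 0.79, 0.66, 1.12 and 0.83 at the low dose and 1.03, 1.01, 1.37 and 1.87 at the high dose. Both ratios overlapped between all groups, and low-dose mouse 3, with C1q at the level of the controls, had the highest low-dose ratio for all 4 genes.

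**Figure D3:**
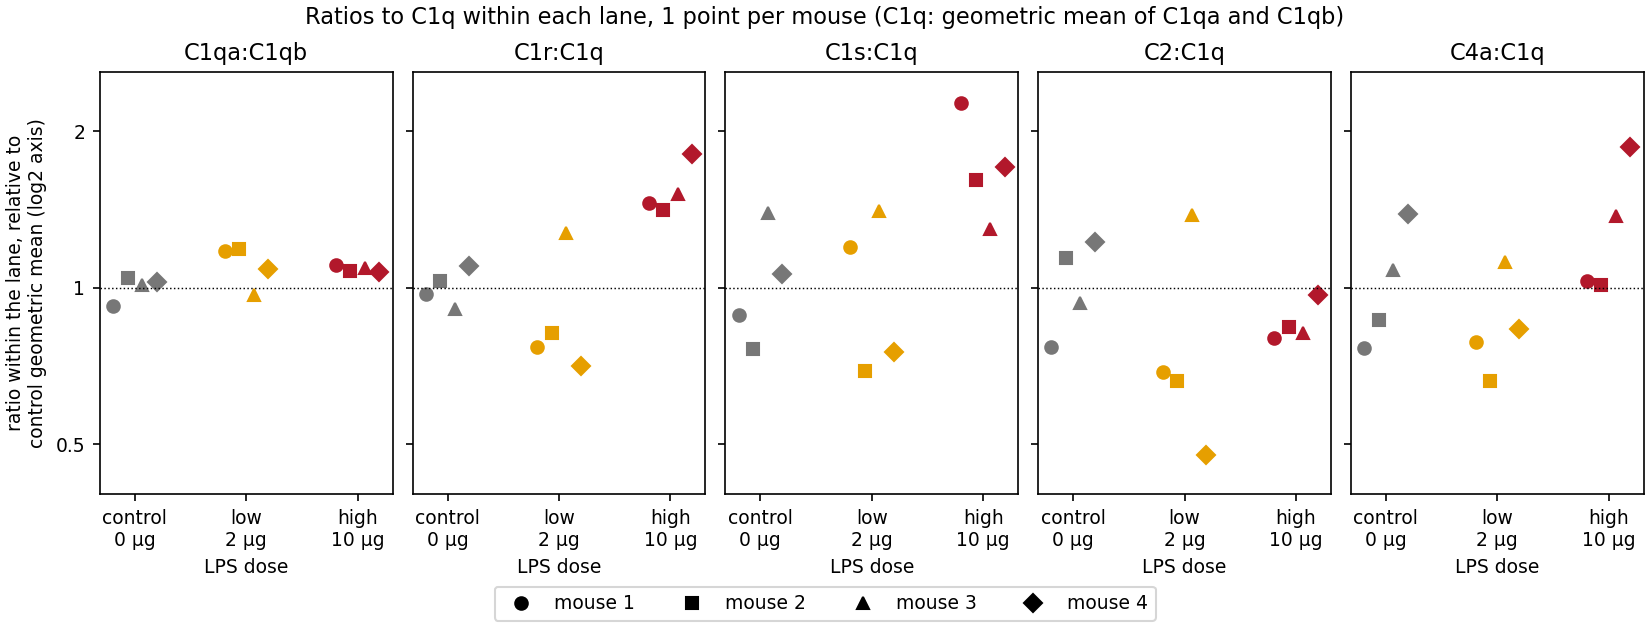
Ratio within the lane of C1qa to C1qb and of C1r, C1s, C2 and C4a to C1q (the geometric mean of C1qa and C1qb), relative to the geometric mean of the controls on a log2 axis, 1 symbol per mouse. C1r:C1q lies between 1.41 and 1.81 in the 4 high-dose mice, above all other mice, and low-dose mice 1, 2 and 4 (0.71 to 0.82) lie below the controls.

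These ratios were tested by refitting all genes with C1q in place of the reference genes as the scale. At the high dose against control, C1s was higher relative to C1q by 0.75 ± 0.33 (log2, SE; adjusted p = 0.0499, edgeR, over 163 genes), a call that was lost under 11 of 19 alternatives (adjusted p from 0.0118 to 0.173). C1r was higher by 0.63 ± 0.31 and did not pass (adjusted p = 0.0735), but passed without low-dose mouse 3 (0.00190), without low-dose mouse 2 (0.0450), with only the 2 groups fitted (0.00116) and with C1qb alone as the scale (0.0327). C4a (0.36 ± 0.34, adjusted p = 0.352) and C2 (-0.25 ± 0.35, adjusted p = 0.537) did not pass. On this scale 6.13% of genes were higher and 64.4% lower, since any gene that rose less than C1q falls relative to it. In simulated data for this comparison, with C1q itself left unchanged, 11.8% of the calls on the C1q scale were false. In the mice C1q rose, so the false share of the calls given here was not tested.

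At the low dose 0 of 4 members passed relative to C1q, where 1.23% of genes were higher and 0 lower. The log2 values were -0.17 ± 0.31 for C1r, -0.02 ± 0.33 for C1s, -0.34 ± 0.35 for C2 and -0.27 ± 0.34 for C4a (SE). Without low-dose mouse 3, C1r (-0.39, adjusted p = 0.0439) and C2 (-0.74, adjusted p = 0.00638) were called lower relative to C1q, as were 70.8% of the 161 genes then tested. Between the doses 0 of 4 passed relative to C1q, where 2.45% of genes were higher: C1r stood at 0.80 ± 0.31, C1s at 0.77 ± 0.33, C4a at 0.63 ± 0.34 and C2 at 0.10 ± 0.35 (adjusted p = 0.249 for the first 3 and 0.861 for C2). Without low-dose mouse 3, C1r passed here (1.02, adjusted p = 0.00290), where 3.73% of genes were higher.

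The 2 chains of C1q moved together more closely than any other pair of members. Likeness was measured as the SD over the 12 lanes of the log2 ratio of 2 genes within the lane, which is small when they keep a constant ratio. It was 0.10 for C1qa and C1qb, whose raw count ratio stayed between 0.552 and 0.709 in all 12 mice. The next closest pairs were C1r with C4a (0.29) and C1r with C1s (0.37), and the widest was C1s with C2 (0.57). Relative to each of the 6 members, the median over all other genes tested was 0.68 (C2) to 1.02 (C1s). The values are descriptions over mice of 3 dose groups, so like or unlike responses to dose enter them. With the group means taken out, the SD was 0.09 for C1qa with C1qb and 0.22 for C1r with C2 and with C1qb. It was 0.28 for C1r with C1qa, 0.29 for C1r with C4a and 0.40 for C1r with C1s. The order of the pairs after the first thus depends on whether dose is included.

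The raw C1r:C1s ratio varied as much within groups as between them, from 0.265 to 0.547 in the controls, 0.261 to 0.481 at the low dose and 0.261 to 0.475 at the high dose. Control mouse 3, low-dose mouse 1 and high-dose mouse 1 had the lowest ratio of their groups, and each of them had the highest C1s of its group. The groups overlapped throughout.

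**Figure D4:**
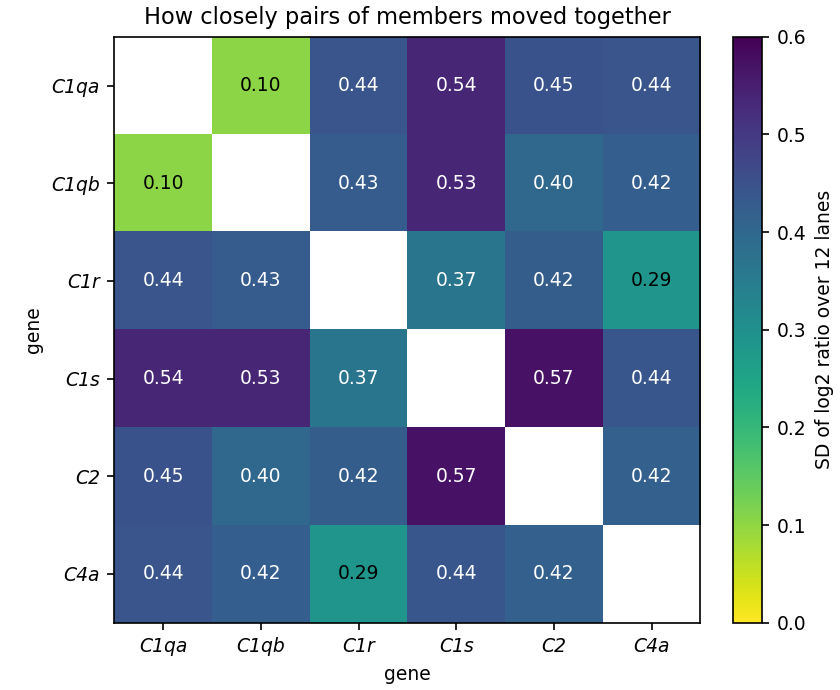
SD over the 12 lanes of the log2 ratio within the lane for each pair of the 6 genes (both axes list the genes; darker is larger, so less alike). C1qa with C1qb stands apart at 0.10, followed by C1r with C4a at 0.29 and C1r with C1s at 0.37.

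By the same measure the 3 nearest genes outside the pathway were taken for each member. Nearest to C1qb were Itgb2, the beta chain of leukocyte integrins (SD 0.19), C3ar1, the receptor for C3a on myeloid cells (0.21), and Cd40, a receptor of antigen-presenting cells (0.29). Nearest to C1qa were C3ar1 and Itgb2 (0.25 each) and Ccl3, a chemokine (0.36). C3, the central complement protein, was nearest to C4a (0.21) and C1r (0.23), and nearest outside the pathway to C1s (0.39). Tlr2, a receptor for bacterial lipoproteins, came next among those reported for C1r (0.35) and C1s (0.44), ahead of Cd40 for C1s (0.55), and Ccl19 for C4a (0.37). C2 was nearest to Nos2, the inducible nitric oxide synthase (0.26), Il1b (0.28) and Ccl19 (0.34), and counts of Nos2 were low (means of 8.13 in controls and 15.3 at the high dose), so counting error weighs more there.

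Of 15 other complement genes on the panel, 11 were tested. At the high dose 3 were higher (C3, Cfb and C3ar1, edgeR) and 0 lower, near the 22.4% of all 165 genes tested that were higher. C3 was at 5849, 9199.8, 11332 and 16824 in the controls and at 32249, 40560.1, 42846 and 48423 at the high dose, with no overlap, a rise of 1.93 ± 0.34 (log2, SE; adjusted p = 0.00185). Relative to C1q, C3 stood at 0.50 ± 0.31 (adjusted p = 0.157) and C3ar1 at -0.19 ± 0.33 (adjusted p = 0.619), neither of which passed. Cfb, factor B of the alternative pathway and the neighbour of C2 on chromosome 17, rose 9.60-fold relative to C1q (3.26 ± 0.44, adjusted p = 4.9e-05) and 3.61-fold at the low dose (1.85 ± 0.41, adjusted p = 0.0185). C2 itself stood at -0.25 and -0.34 on that scale.

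On the reference scale the other 8 complement genes tested did not pass in any of the 3 comparisons. Cd55, an inhibitor of the convertases, stood at 0.42 ± 0.17 at the high dose (log2, SE; adjusted p = 0.112), with all high-dose mice above all controls. Masp1 and Masp2, proteases of the lectin pathway, stood at 0.46 ± 0.26 and -0.37 ± 0.71, and Cfd, the factor D protease, at -3.74 ± 1.79. Scaled counts of Cfd ranged from 3.88 to 2039 among the controls alone, and from 2.50 to 138 at the high dose. The terminal components C6, C7, C8b and Hc (C5) stood at between -0.72 and 0.14. Counts of C6, C8b and Hc were near background (control means of 11.7, 4.90 and 7.10), so a change in them could be missed. C8a, C9, Mbl2, the mannose-binding lectin, and Crp, a pentraxin that C1q can bind, were not above background in enough lanes to be tested.

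Markers of the cells that make C1q were few on this panel: 3 of the 13 macrophage and monocyte markers listed, Ccr2, Ccr1 and C3ar1, with none of the 3 at background in all lanes. Their summed scaled counts ranged from 271 to 419 in controls, 243 to 708 at the low dose and 534 to 684 at the high dose, and 1 of 3 (C3ar1) was called higher at the high dose. Low-dose mouse 3, with the lowest C1q of its group, also had the lowest sum, 243, against 592 to 708 in the other 3. Of those 3, mouse 2 had the highest C1q but the lowest sum, 592. Ccr2 was at 398, 200, 93.2 and 377 in low-dose mice 1 to 4. Ccr1 was at 30.8, 40.3, 14.3 and 12.9, so it was lowest in mouse 4. C3ar1 was at 135 in low-dose mouse 3 and at 268 to 351 in the others. Itgb2, shared by many leukocytes, was at 88.5 and at 166 to 258. Both were named above as nearest to C1qa and C1qb over these same lanes, so their following C1q here is no separate evidence. C3ar1 is also part of the summed counts, so the low sum of mouse 3 is not fully separate evidence either. Ccr2, a receptor of blood monocytes, was at 202 on average in controls and 227 at the high dose (0.17 ± 0.42, adjusted p = 0.841). Of the 3 neutrophil markers on the panel 2 rose at the high dose, Il8rb and Itgb2. The summed level of all 3 was 77.6 to 125 in controls and 196 to 357 at the high dose. Of 7 T and NK cell markers 2 rose (summed level 54.0 to 93.2 and 112 to 133). Ccr7, the dendritic cell marker, rose (1.29 to 5.11 and 8.12 to 15.5). Without LPS, Il8rb and Ccr7 did not exceed the background limit in any mouse, so their control levels were not measured. With 10 µg both exceeded that limit in all 4 mice. Their mRNA was thus detected after LPS, but the size of each rise is uncertain. Of the 2 smooth muscle and vessel markers 0 rose (623 to 834 and 735 to 883), and none of the B cell or oviduct epithelium markers listed was on the panel, and Crp, the liver marker on the panel, was not tested, so the tissue label could not be checked against them. The part of changed cell numbers in the rises of the members was not tested.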

How the data were processed

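Counts of mRNA from the oviducts of 12 mice were deposited by the authors as 1 table, with 1 lane per mouse. The deposited values were handled under the rules for expected counts because the same columns hold a decimal line for binding density; all 2388 probe counts are whole, so rounding changed nothing. For the instrument's own steps, the sources used here give nothing. Groups and mouse numbers come from the sample titles. The labels say 4 mice per group; nothing says that equal numbers mark a shared litter or day.

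Each lane's scale was the geometric mean of its counts for Cltc, Gapdh, Gusb, Hprt1, Pgk1 and Tubb5, centred on a geometric mean of 1. Of 179 inflammation genes, the 165 above the mean plus 2 SD of the 8 negative control probes of their lane in at least 4 of 12 lanes entered the quasi-likelihood test of edgeR 4.0.16 under R 4.3.3, fitted to all 12 lanes; p-values were adjusted by Benjamini-Hochberg and called below 0.05. SE came from the F statistic. Fits relative to C1q used the geometric mean of C1qa and C1qb as the scale. Alternatives included limma 3.58.1 (voom) and DESeq2 1.42.0. Tested on simulated data of the high-dose comparison, the fit recovered 82.1% of 2-fold changes where the control mean reached 100 on the reference scale (165 genes; 4.38% of calls false) and 47.8% on the C1q scale (163 genes). C1q was left unchanged between the groups in these simulated data. Lanes of a group differed by a chi-square per degree of freedom of at least 16.6, far above counting noise, so none was a copy of another in its group. Lanes of different groups were not compared, and whether 1 sample was prepared again was not tested.

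The 6 members, the lists and the tests were chosen with earlier results of these data known. Named are the 6 members, the other complement genes of the panel, the 3 genes outside the pathway nearest to each member by the SD of the log2 ratio, and marker genes. 1 gene that this rule names is not reported here. Promoter sequences and current names came from RefSeq tables (GRCm38.p6), which matched 179 of 185 accessions.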

Additional observations from a re-analysis of the deposited data

Results flagged for a closer look

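Among 48 groups of 4 values (scaled counts of the members, their ratios and measures of the lanes), 2 held a mouse that stood apart from the rest of its group; about 1 in 20 groups, or 2.4, would by chance. C1r in control mouse 1 had a scaled count of 763, against 1135 to 1197 in the other controls. The reference scale of that lane was 1.19 and its scale by positive controls 0.917, so its scaled counts are lower on the reference scale. The endogenous total was 98258 in control mouse 2, against 121424 to 126058 in the other controls. Without control mouse 1 or control mouse 2 all 6 members were still called higher at the high dose.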

How the results depend on the processing

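The 6 members were called higher at the high dose in each of the 12 leave-one-out fits and under 13 of 15 other alternatives, with 5 under the remaining 2. The genes called lower at the high dose, 0 on the reference scale, were 20 by TMM, 62 by total count, 25 by DESeq2 size factors and 31 by DESeq2's own test. Total count also shifted the median of all genes to -0.34 at the high dose, against 0.24. At the low dose, DESeq2 gave 9 higher and 2 lower genes and 2 members, limma-voom 2 genes, the 2 groups alone 1 gene, and leaving out control mice 2 and 4 gave 0. The methods' test gave 2 members unadjusted, with 3 genes lower, and 1 after adjustment. Over the 15 alternatives other than leaving 1 mouse out, 0 to 9 genes were higher at the low dose. With 1 mouse left out, 1 to 14 genes and 0 to 3 members were higher. Between the doses, 1 member instead of 2 was higher by TMM, DESeq2 size factors, positive controls (7 genes), background subtraction (7) and without control mice 2 and 4 (7), and 4 by the methods' test (38 genes higher and 1 lower unadjusted, 24 higher adjusted). Total count gave 36 lower genes and turned C1qa to -0.0284, and DESeq2 gave 4 lower. With 1 mouse left out, 6 to 14 genes and 1 to 3 members were higher. Relative to C1q at the high dose, 0 members were higher by C1qa alone and with background subtraction, 2 by C1qb alone and with only the 2 groups, and 0 to 2 with 1 mouse left out. Over all 19 alternatives 7 to 11 genes were higher in that comparison. Relative to C1q at the low dose, the genes lower were 1 by C1qa alone, 1 by limma-voom, 2 with the filter on all 12 lanes, and 1 with only the 2 groups (1 higher). With 1 mouse left out, 0 to 114 were lower and 1 to 3 higher, and C1s ranged from -0.22 to 0.16; by C1qb alone C1s was at 0.0389. Relative to C1q between the doses, 2 genes were lower with only the 2 groups. With 1 mouse left out there were 2 to 6 higher and 0 to 2 lower genes and 0 to 1 member, and C2 ranged from -0.0859 (without low-dose mouse 4) to 0.493. The causes were not tested.

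Of 12 pairs of mice with the same number, 9 correlated above 0.1 in their deviations from the group (from -0.16 to 0.59). Pairs of unlike number were not compared, so a shared effect of the number cannot be told from these values. The main fits took no pairs because the labels state no shared litter or day. With the replicate number as a block, 1 member was higher between the doses, and relative to C1q 0 members were higher at the high dose, 3 genes lower at the low dose, and 7 genes higher and 1 lower between the doses. Counting error of the members was at most 4.69%; errors of RNA input and hybridisation were not measured.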
